A study of Mus musculus with 18 samples.

Results

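Expression of 10 macrophage identity and scavenger genes was examined in osteoclast cultures grown from mouse bone marrow. The genes were Adgre1, Cd68, Mrc1, Cd163, Mertk, Msr1, Marco, Lyz2, Cd14 and Vsig4, chosen by name as the lines of the count table that carry these symbols. All 10 were among the 34745 genes of the table and among the 14241 that passed the filter on low counts. RNA sequencing had been carried out on bone marrow-derived macrophages (BMDMs), that is, marrow cells grown with M-CSF, the growth factor that keeps macrophages alive. The cells came from young Zmat1+/+ (wild type, WT) mice and from Zmat1-/- (knockout, KO) littermates on a C57BL/6 background. The knockout of Zmat1, which encodes a zinc finger protein, was not limited to a cell type. Day 0 cells had M-CSF only, and day 1 and day 3 cells had M-CSF with RANKL, the cytokine that drives macrophages to fuse into bone-resorbing osteoclasts. There were 3 libraries in each of the 6 groups of label and day, 18 in all, and the labels do not say whether those of a group came from separate animals. P-values therefore measure only the spread between libraries, which may be technical.

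Macrophages patrol tissues and clear dead cells, debris and microbes through receptors on their surface. Adgre1 (F4/80) and Cd68 are the usual identity markers. Mrc1, Cd163, Msr1 and Marco encode endocytic and scavenger receptors, and Mertk is a receptor for the uptake of apoptotic cells. Lyz2 encodes lysozyme, Cd14 a co-receptor for bacterial lipopolysaccharide, and Vsig4 a complement receptor of tissue-resident macrophages. Osteoclasts arise from the same precursors under RANKL and take up genes for fusion and bone resorption.

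Total counts per library ranged from 13789775 to 17559958. The library titles were written in 2 styles, and 5 carried 2 hyphens in place of 1 (WT day 0 library 1, 1 of the 2 WT day 1 libraries numbered 1, KO day 0 library 2, and KO day 1 libraries 1 and 2). What the hyphens stand for is not given in the sources used here, and all day 3 titles had 1 hyphen. Zmat1 itself did not follow the labels. It had at least 49 counts in each of the 9 libraries labelled KO, at 3.49 to 7.61 CPM (counts scaled by library size), against at least 32 counts and 2.19 to 7.50 CPM in the 9 labelled WT. The authors typed their mice by PCR of tail DNA and also measured Zmat1 mRNA in BMDMs of both genotypes by qPCR. Counts per gene do not show whether a deleted part was read, and KO and WT are used below as the labels of the libraries.

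By day 3, 7 of the 10 genes had fallen in the libraries labelled WT, and the same 7 had fallen in those labelled KO. They were Adgre1, Mrc1, Cd163, Mertk, Lyz2, Cd14 and Vsig4, which were left at 6.12% (Cd163) to 23.5% (Mrc1) of their day 0 mean in WT and at 13.4% (Cd163) to 38.0% (Mrc1) in KO. Cd68, Msr1 and Marco did not pass the test in either label, and no gene of the 10 rose. A gene was called at a Benjamini-Hochberg adjusted p under 0.05 in edgeR's quasi-likelihood test over all 14241 genes. Of these, 50.2% were called in WT, 26.5% lower and 23.7% higher, and 42.5% in KO, 22.3% lower and 20.2% higher. Every day 3 library was below every day 0 library for 7 genes in WT, where 31% of all genes were placed that way, and for 8 genes in KO, where 29.4% were. The median log2 fold change of the 10 genes was -2.40 in WT and -1.90 in KO, beside -0.031 and -0.0052 over all genes. Scaling by total counts, in place of edgeR's trimmed mean method (TMM), shifted the median of all genes to 0.33 in WT and 0.29 in KO. It moved the lower part of all called genes from 52.8% to 30.1% in WT and from 52.5% to 31.5% in KO, and 7 of the 10 genes were called in each label as before. In bulk RNA fewer cells of a type and less RNA per cell cannot be told apart.

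**Figure D1:**
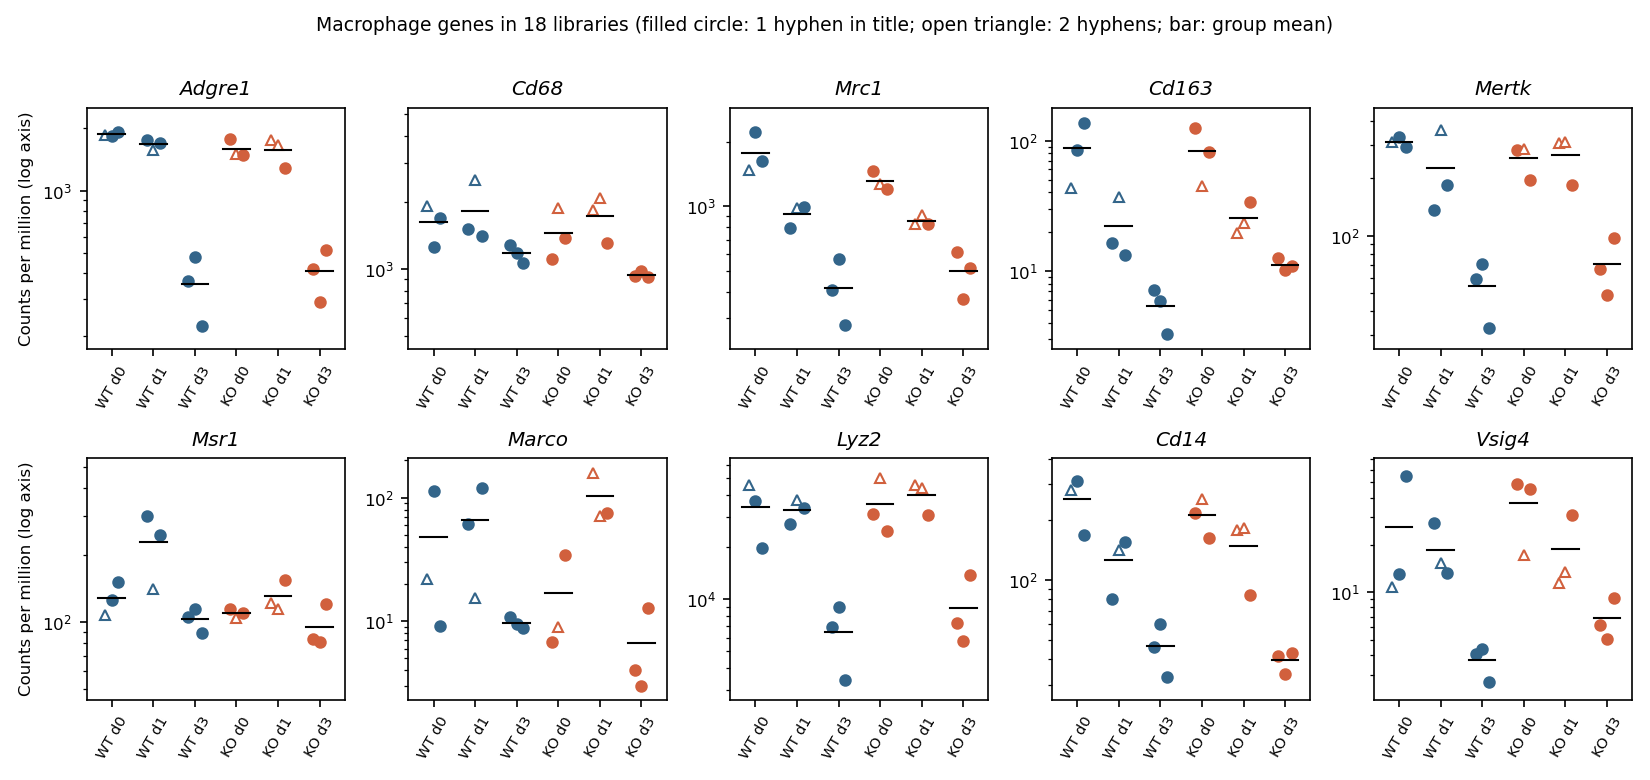
CPM of each gene (vertical log axis, scaled by TMM library size) in the 6 groups of label and day (horizontal axis), blue labelled WT and orange labelled KO. Each point is a library, open triangles have 2 hyphens in the title, and bars are means of 3 libraries. Adgre1, Mertk, Lyz2 and Cd14 stand apart and lower on day 3. Msr1 overlaps its day 0 levels in both labels, and Cd68 overlaps them in WT and lies below them in KO.

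**Figure D2:**
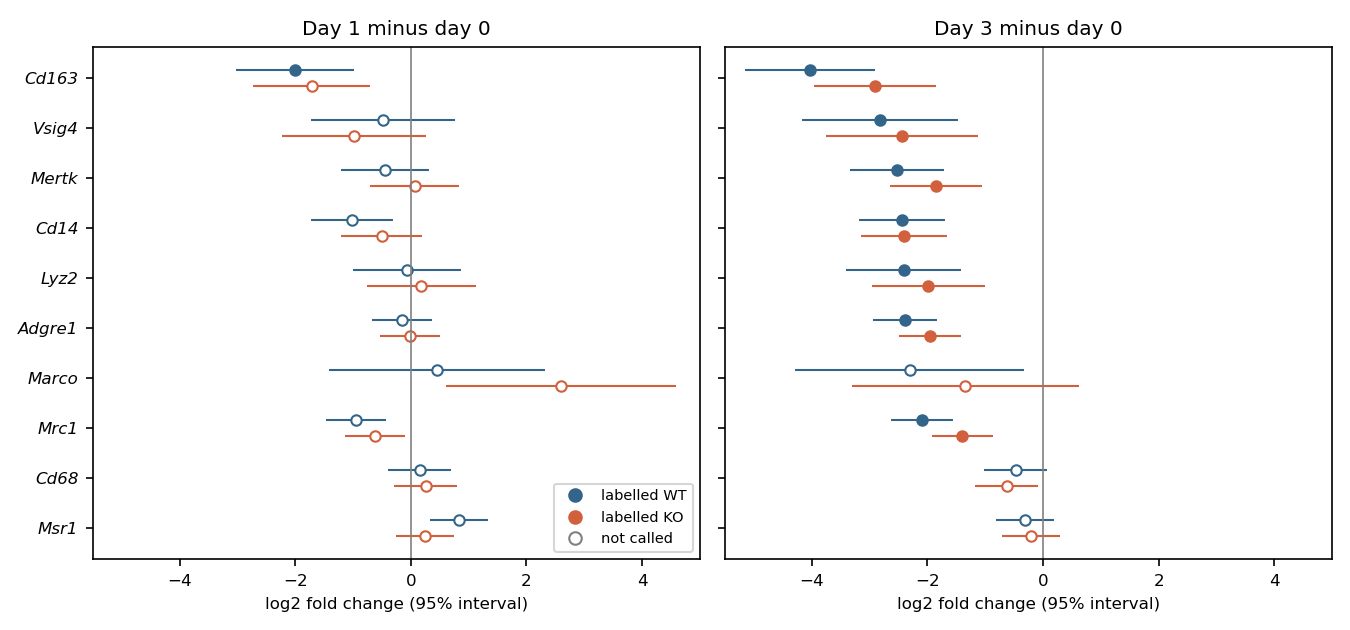
The log2 fold changes of the 10 genes on day 1 (left) and day 3 (right) against day 0, with 95% intervals, ordered by the WT change on day 3. Filled points were called, and on day 3 these are the same 7 genes in both labels, from -4.03 (Cd163) to -2.09 (Mrc1) in WT.

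RefSeq promoter sequence (GRCm38.p6) was found for 7 of the 10 genes. Adgre1, Msr1 and Cd14 had no entry. The 250 bases before the start site are shown for a gene that did not pass the test (Cd68) and for 2 receptors that fell (Mrc1, and Cd163 with the lowest share left), so that the regions can be read side by side. Capitals mark matches of GAGGAA, a sequence that the macrophage factor PU.1 can bind, and of the AP-1 motif TGANTCA, to which Fos and Jun factors bind, on either strand. Only these full runs were searched, and the shorter ETS core GGAA was not marked. The Cd68 region lies on the minus strand at chr11:69666171-69666420, Mrc1 on the plus strand at chr2:14229164-14229413, and Cd163 on the plus strand at chr6:124304401-124304650.
Cd68: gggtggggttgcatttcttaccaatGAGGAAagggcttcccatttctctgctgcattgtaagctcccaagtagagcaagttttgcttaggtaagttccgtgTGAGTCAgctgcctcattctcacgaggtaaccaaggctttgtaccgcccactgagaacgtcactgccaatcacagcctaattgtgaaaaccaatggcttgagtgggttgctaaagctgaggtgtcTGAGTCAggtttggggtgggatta
Mrc1: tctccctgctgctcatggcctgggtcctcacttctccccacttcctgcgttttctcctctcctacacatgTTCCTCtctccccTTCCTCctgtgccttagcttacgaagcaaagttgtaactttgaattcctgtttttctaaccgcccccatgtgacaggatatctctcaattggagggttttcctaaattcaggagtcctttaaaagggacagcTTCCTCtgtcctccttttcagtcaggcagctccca
Cd163: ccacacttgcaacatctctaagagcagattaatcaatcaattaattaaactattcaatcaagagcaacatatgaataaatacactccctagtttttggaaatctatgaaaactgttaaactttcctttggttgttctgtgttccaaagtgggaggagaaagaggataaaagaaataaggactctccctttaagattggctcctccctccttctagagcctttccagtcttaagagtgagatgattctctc
Cd68 held 1 GAGGAA match, 225 bases before the start, and 2 AP-1 matches, 149 and 24 bases before it. Mrc1 held 3 GAGGAA matches on the opposite strand, 180, 167 and 35 bases before the start, and no AP-1 match. Cd163 held neither GAGGAA nor the AP-1 motif. Among the other regions Vsig4 had 2 GAGGAA matches and Marco 1, and Mertk and Lyz2 had no match of GAGGAA or the AP-1 motif. Of 32851 such regions in the RefSeq table, 23.3% hold GAGGAA and 6.75% the AP-1 motif. No match shown overlaps another. A match is a run of letters and was not tested for binding.

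Levels of different genes were compared per length, as the deposited FPKM. Lyz2 was highest in every group, at 24413 ± 8504 FPKM (mean ± SD, n = 3) on WT day 0, followed in every group by Cd68, Adgre1, Mrc1 and Cd14 in that order of means. On WT day 0 Cd68 stood at 715 ± 127, Adgre1 at 472 ± 34.5, Mrc1 at 219 ± 55.1 and Cd14 at 146 ± 42.0 FPKM, and the libraries of Mrc1 and Cd14 overlapped. The other genes were lower there, with Mertk at 46.4 ± 3.60, Msr1 at 29.3 ± 6.42, Marco at 22.0 ± 26.4, Vsig4 at 13.6 ± 13.3 and Cd163 at 11.8 ± 6.70 FPKM, and from Msr1 down each overlapped the next. The order changed below Cd14. Msr1 stood below Mertk on day 0 in both labels and above it on day 3, at 30.1 ± 3.01 against 10.3 ± 3.51 FPKM in WT and 26.9 ± 5.02 against 13.1 ± 4.01 in KO, with no overlap of libraries. Cd163 had the lowest mean on day 3, at 0.907 ± 0.318 FPKM in WT and 1.83 ± 0.241 in KO, where its libraries overlapped those of Marco. Adgre1 and Cd68 also moved apart. On day 3 Cd68 was at 668 ± 51.3 and Adgre1 at 115 ± 39.0 FPKM in WT, and at 519 ± 34.0 and 129 ± 31.7 in KO.

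**Figure D3:**
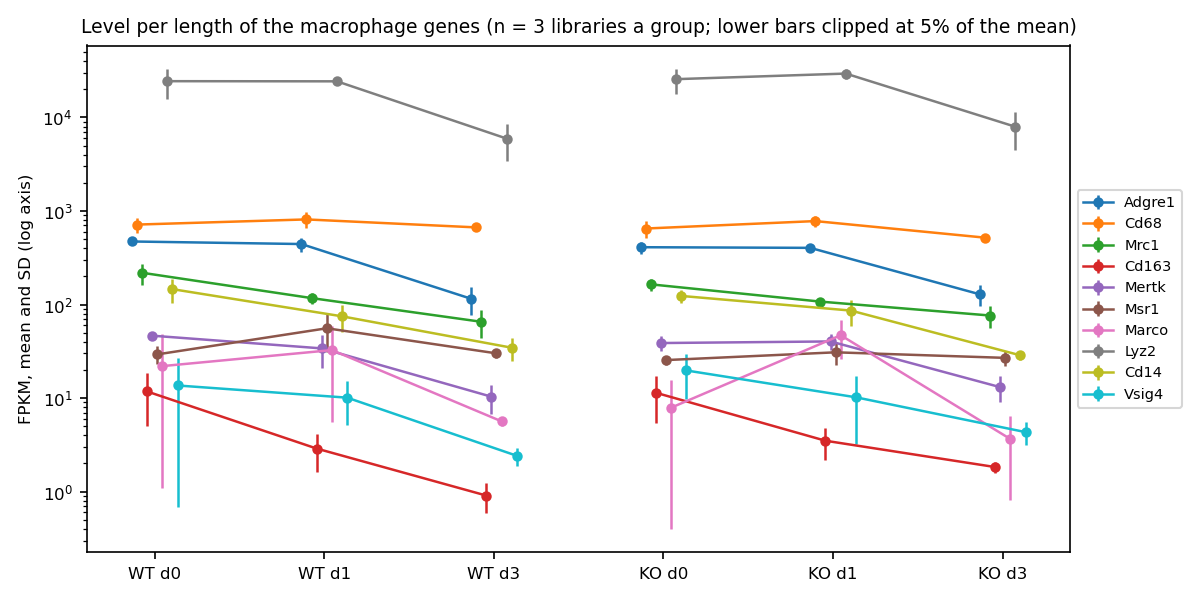
Level per length (FPKM, log axis) of the 10 genes as the mean of 3 libraries with the SD, by label and day. Lyz2 lies above all others throughout, and Msr1 passes from below Mertk on day 0 to above it on day 3 in both labels.

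The identity markers Adgre1 and Cd68 parted. Adgre1 (ENSMUSG00000004730, chromosome 17, 57358686 to 57483529, plus strand) encodes an adhesion G protein-coupled receptor used to name mouse macrophages. Its WT libraries 1, 2 and 3 held 1846, 1831 and 1928 CPM on day 0 and 367, 479.9 and 224 CPM on day 3. In KO the values were 1777, 1502 and 1482 CPM on day 0 and 420.4, 293 and 517 CPM on day 3. The day 3 libraries of both labels lay far below those of day 0. The log2 fold change was -2.39 (SE 0.257, adjusted p = 1.34e-05) in WT and -1.95 (SE 0.253, adjusted p = 7.86e-05) in KO, and 19.1% and 25.8% of the day 0 mean remained.

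Cd68 (ENSMUSG00000018774, chromosome 11, 69664213 to 69666153, minus strand) encodes a lysosomal glycoprotein that osteoclasts also carry. It stood at 1924, 1261 and 1706 CPM on WT day 0 and at 1278, 1184 and 1070.0 CPM on day 3. In KO it stood at 1110.0, 1891 and 1376 CPM on day 0 and at 927, 982 and 918 CPM on day 3. Day 0 and day 3 overlapped in WT, through day 0 library 2 and day 3 library 1, and did not overlap in KO. That gap in KO held for the TMM scale. In FPKM, KO day 0 library 1 (519) lay below KO day 3 libraries 1 and 2 (526 and 549). The day 3 mean of Cd68 was 72.2% of day 0 in WT and 64.6% in KO. Its log2 fold change was -0.47 (95% interval -1.02 to 0.076, adjusted p = 0.136) in WT and -0.63 (-1.18 to -0.085, adjusted p = 0.0592) in KO. Within each day 0 group Cd68 was highest in the library with 2 hyphens. Adjusted for title style, the change was -0.27 (adjusted p = 0.13) in WT and -0.41 (adjusted p = 0.0339) in KO, and without KO day 0 library 1 it was -0.77 (adjusted p = 0.0398) in KO. Scaled by total counts, the change was -0.099 (adjusted p = 0.683) in WT and -0.32 (adjusted p = 0.185) in KO.

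Mrc1 and Cd163, receptors linked to tissue macrophages, both fell. Mrc1 (ENSMUSG00000026712, chromosome 2, 14229392 to 14332057, plus strand) encodes the mannose receptor CD206, which binds sugars on glycoproteins and microbes. It held 1476, 2221 and 1636 CPM on WT day 0 and 406, 566 and 279 CPM on day 3. The KO values were 1469.8, 1267 and 1202 CPM on day 0 and 612, 369 and 516 CPM on day 3. The days did not overlap in either label. The log2 fold change was -2.09 (SE 0.252, adjusted p = 2.67e-05) in WT and -1.40 (SE 0.247, adjusted p = 0.000644) in KO.

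Cd163 (ENSMUSG00000008845, chromosome 6, 124304656 to 124330527, plus strand) encodes the receptor that clears haemoglobin bound to haptoglobin. It held 43.0, 84.7 and 137 CPM on WT day 0 and 7.07, 5.88 and 3.25 CPM on day 3, where the lowest library had 58 counts. The KO values were 125, 44.8 and 81.0 CPM on day 0 and 12.5, 10.1 and 10.9 CPM on day 3. All day 3 libraries lay below all day 0 libraries, and the day 0 libraries themselves spread widely, the lowest of each label being the one with 2 hyphens. It changed by -4.03 (SE 0.525, adjusted p = 4.67e-05) in WT and -2.90 (SE 0.496, adjusted p = 0.000514) in KO on the log2 scale. On day 3 each KO library was above each WT library, at 11.2 ± 1.23 against 5.40 ± 1.95 CPM. That difference was 1.05 on the log2 scale (0.010 to 2.08, unadjusted p = 0.048) and did not pass after adjustment (adjusted p = 0.465).

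The class A scavenger receptors Msr1 and Marco, which bind modified lipoproteins and bacteria, passed the test in neither label. Msr1 (ENSMUSG00000025044, chromosome 8, 39581700 to 39642678, minus strand) was at 107, 125 and 151 CPM on WT day 0 and at 105, 114 and 89.0 CPM on day 3. In KO it was at 114, 105 and 109 CPM on day 0 and at 83.9, 81.1 and 120.3 CPM on day 3. The days overlapped in both labels. Its log2 fold change was -0.32 (-0.82 to 0.19, adjusted p = 0.269) in WT and -0.20 (-0.70 to 0.30, adjusted p = 0.51) in KO, and scaling by total counts turned these to 0.037 and 0.079. Its day 3 mean was 80.3% of day 0 in WT and 87.0% in KO under TMM.

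Marco (ENSMUSG00000026390, chromosome 1, 120474538 to 120505024, minus strand) varied widely between libraries of a group. On WT day 0 it was at 21.8, 113 and 9.15 CPM, and on day 3 at 10.9, 9.41 and 8.75 CPM. On KO day 0 it was at 6.77, 8.998 and 34.6 CPM, and on day 3 at 3.99, 3.00 and 12.8 CPM. Groups overlapped in both labels, and single libraries set the size of the change. The WT value of -2.31 (-4.29 to -0.33, adjusted p = 0.0505) went to -0.65 (adjusted p = 0.555) without WT day 0 library 2. It passed without WT day 0 library 1 (-2.63, adjusted p = 0.0469) or library 3 (-2.77, adjusted p = 0.0182). It also passed when adjusted for title style (-2.56, adjusted p = 0.0267). The KO value of -1.34 (-3.31 to 0.63, adjusted p = 0.252) went to -0.23 without day 0 library 3, and was -2.26 when day 3 library 3 was left out.

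Mertk (ENSMUSG00000014361, chromosome 2, 128698956 to 128802894, plus strand), a receptor tyrosine kinase that recognises apoptotic cells through Gas6 and protein S, also fell. Its WT libraries had 311, 331 and 292 CPM on day 0 and 58.9, 70.7 and 32.8 CPM on day 3. The KO libraries had 284, 287 and 195 CPM on day 0 and 66.5, 48.8 and 97.0 CPM on day 3. No day 3 library reached the day 0 range. The change was -2.52 (SE 0.380, adjusted p = 0.000128) in WT and -1.85 (SE 0.371, adjusted p = 0.00149) in KO.

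Lyz2 (ENSMUSG00000069516, chromosome 10, 117277334 to 117282274, minus strand) took 1.88% to 4.31% of all counts on day 0 and 0.411% to 1.51% on day 3, and had the most counts of any gene in 10 of the 18 libraries. It was at 46067, 37061 and 19833 CPM on WT day 0 and at 6923, 9043 and 3413 CPM on day 3. In KO it was at 31275, 50203 and 24975 CPM on day 0 and at 7257, 5729.8 and 13887 CPM on day 3. The groups did not overlap. The log2 fold change was -2.41 (SE 0.464, adjusted p = 0.000771) in WT and -1.99 (SE 0.457, adjusted p = 0.00356) in KO. Reads can be split between Lyz2 and its close copy Lyz1, and with both summed the change was -2.38 in WT and -1.95 in KO. Lyz1 alone was at 49.7 CPM on WT day 0 and 24.0 CPM on day 3 (log2 fold change -1.05, adjusted p = 0.12), and at 92.7 and 73.1 CPM in KO (-0.34, adjusted p = 0.625). The WT change of Lyz1 was called with the replicate block within label (-1.27, adjusted p = 0.0445) and with title style as a covariate (-1.32, adjusted p = 0.0393), and the KO change under none of the alternatives.

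Cd14 (ENSMUSG00000051439, chromosome 18) fell in both labels. It was at 281, 310.4 and 167 CPM on WT day 0 and at 46.4, 60.5 and 32.7 CPM on day 3. In KO it was at 216, 253 and 163 CPM on day 0 and at 41.8, 33.9 and 43.1 CPM on day 3. The days did not overlap. It changed by -2.44 (SE 0.349, adjusted p = 8.6e-05) in WT and -2.41 (SE 0.349, adjusted p = 0.000164) in KO on the log2 scale, and the KO change minus the WT change was 0.034 (-0.97 to 1.04).

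Neutrophils and monocytes also express Lyz2 and Cd14, and most of their markers were likewise lower on day 3. All 12 neutrophil markers of a list were called lower on day 3 in both labels, where 26.5% of all genes were in WT and 22.3% in KO. Their summed level was 916 to 3448 CPM on WT day 0 and 62.9 to 96.5 CPM on WT day 3, and 4144 to 12940 CPM on KO day 0 and 131 to 1334 CPM on KO day 3. Of 5 monocyte markers all were called lower in WT and 4 in KO, and their sum was 729 to 996 CPM on WT day 0 and 39.8 to 50.5 CPM on WT day 3, and 705 to 2465 CPM on KO day 0 and 154 to 495 CPM on KO day 3. No marker of either list was at 0 in every library of a group. KO day 3 library 3 had the highest Lyz2 level and the highest neutrophil sum of the 6 day 3 libraries, and without it the KO change of Lyz2 was -2.45. On day 1 the neutrophil sum was 478 to 2651 CPM in WT and 1851 to 3663 CPM in KO. The monocyte sum was 140 to 476 CPM and 348 to 890 CPM. Lyz2 had then changed by -0.067 in WT and 0.18 in KO, and Cd14 by -1.02 and -0.51. On day 0 the median log2 difference of KO minus WT was 1.90 over the neutrophil markers, none of them called. That difference was 0.048 for Lyz2 and -0.27 for Cd14. The part of neutrophil and monocyte RNA in the change of Lyz2 and Cd14 was not tested.

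Vsig4 (ENSMUSG00000044206, chromosome X, 96247203 to 96293438, minus strand) was at 10.7, 13.1 and 54.5 CPM on WT day 0 and at 4.03, 4.35 and 2.69 CPM on day 3. In KO it was at 48.7, 17.2 and 45.4 CPM on day 0 and at 6.19, 5.08 and 9.23 CPM on day 3. WT day 0 library 3 stood well above the other WT day 0 libraries, and the days still did not overlap in either label. The change was -2.82 (SE 0.631, adjusted p = 0.0022) in WT and -2.44 (SE 0.614, adjusted p = 0.00613) in KO. Without WT day 0 library 3 the WT change was -1.66 (adjusted p = 0.0133).

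On day 1 few of these genes had moved beyond the spread. In WT 1 of the 10 was called, Cd163, where 2.35% of all genes were, and in KO none were, where 0.0211% were. At an unadjusted p under 0.05 there were 4 and 3 of the 10, beside 20.5% and 10.2% of all genes. Cd163 was at 16.5, 36.7 and 13.2 CPM in the WT day 1 libraries (in order, library 1 with 1 hyphen, library 1 with 2 hyphens, and library 2), a mean of 25.1% of day 0. In KO it was at 19.6, 23.4 and 33.5 CPM, or 30.5%. All day 1 libraries lay below all day 0 libraries in both labels, and above all day 3 libraries. The log2 fold change was -2.00 (SE 0.478, adjusted p = 0.0468) in WT and -1.72 (SE 0.473, adjusted p = 0.253) in KO. The WT call was lost without WT day 0 library 2 (adjusted p = 0.149) or library 3 (adjusted p = 0.0607), and without either WT day 1 library with 1 hyphen (adjusted p = 0.23 and 0.123). With the replicate number as a block it was also lost (-2.04, adjusted p = 0.0656, and 0.115 with the block within label), and it held under 8 of 17 alternatives. The KO change was called with the DESeq2 Wald test alone (adjusted p = 0.0355).

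Mrc1 and Cd14 had day 1 means between those of day 0 and day 3. Mrc1 was at 790.2, 981 and 997 CPM in WT and at 825, 909 and 829 CPM in KO, or 51.9% and 65.1% of day 0, with no overlap with day 0 or day 3. Its change was -0.95 (SE 0.244, adjusted p = 0.0547) in WT and -0.62 (SE 0.243, adjusted p = 0.413) in KO, and it passed in WT without day 0 library 3 (adjusted p = 0.0435) or the day 1 library with 2 hyphens (adjusted p = 0.0382), and in all under 5 of 17 alternatives. Cd14 was at 80.0, 141 and 154 CPM in WT and at 178, 182 and 83.8 CPM in KO. Its day 1 and day 0 libraries did not overlap in WT (-1.02, adjusted p = 0.107, and 0.044 without WT day 0 library 3) and overlapped in KO (-0.51, adjusted p = 0.641).

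Adgre1 and Lyz2 had day 1 means near those of day 0. Adgre1 was at 1754, 1574 and 1701 CPM on WT day 1 and at 1762, 1655 and 1290.1 CPM on KO day 1, with log2 fold changes of -0.16 (-0.68 to 0.36) and -0.017 (-0.54 to 0.50). In WT its day 1 libraries all lay just below those of day 0, and in KO the days overlapped. Lyz2 was at 27275, 37426 and 33596 CPM in WT and at 46132, 44167 and 30584 CPM in KO, a change of -0.067 (-1.01 to 0.87) and 0.18 (-0.76 to 1.12).

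In 4 of the 10 genes (Mertk, Cd68, Lyz2 and Msr1) the 3 day 1 libraries of one title style did not overlap the 3 of the other. The share of all genes that split this way was not computed, so the split is not shown to be particular to these genes. Mertk was at 137 and 185 CPM in the WT day 1 libraries with 1 hyphen and at 362 CPM in that with 2, and in KO at 184 CPM with 1 hyphen and at 308 and 309 CPM with 2. Cd68 was at 1523, 1405 and 1310.4 CPM in the day 1 libraries with 1 hyphen and at 2525, 1839 and 2080.4 CPM in those with 2. Msr1 went the other way, at 299, 245 and 155 CPM with 1 hyphen and at 139.8, 122 and 114 CPM with 2. Lyz2 was at 27275, 33596 and 30584 CPM with 1 hyphen and at 37426, 46132 and 44167 CPM with 2. The sum of 10 general macrophage markers split the same way, at 8908, 11270 and 8930 CPM with 1 hyphen and at 18780, 15700 and 15260 CPM with 2. The day 1 change of Mertk was -0.45 (adjusted p = 0.514) in WT and 0.064 (adjusted p = 0.973) in KO, and that of Cd68 was 0.16 (adjusted p = 0.786) and 0.26 (adjusted p = 0.787). The styles are not balanced over the labels on day 1, with 2 hyphens in 1 of 3 WT and 2 of 3 KO titles.

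Msr1 on WT day 1 depended on these libraries. Over all 3 its mean was 178% of day 0 (log2 fold change 0.84, 0.33 to 1.34, adjusted p = 0.0706). Without the WT day 1 library with 2 hyphens it had risen by 1.10 (adjusted p = 0.00641), and adjusted for title style by 0.80 (adjusted p = 0.0276). It also passed without WT day 0 library 3 (0.97, adjusted p = 0.045), and in all under 6 of 17 alternatives. The KO mean was 119% of day 0 (0.25, -0.25 to 0.75). KO minus WT on day 1 was -0.81 (-1.31 to -0.31, unadjusted p = 0.0038, adjusted p = 0.444). That difference passed without the WT day 1 library with 2 hyphens (-1.07, adjusted p = 0.024) and did not when adjusted for title style (-0.63, adjusted p = 0.14). KO day 1 libraries 1 and 2, both with 2 hyphens, stayed in the first of these fits. In it 131 of all genes were called between the labels on day 1, against 16 with every library. With all titles of 2 hyphens left out, which kept only KO day 1 library 3 of its group, the difference was -0.81.

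Marco had its highest mean on KO day 1, at 159.6, 71.2 and 75.6 CPM, where every library lay above every KO day 0 library (log2 fold change 2.60, 0.62 to 4.59, adjusted p = 0.366). On WT day 1 it was at 61.5, 15.3 and 120.0 CPM (0.45, -1.42 to 2.32). Vsig4 was at 27.5, 15.2 and 13.3 CPM on WT day 1 and at 11.4, 13.5 and 31.2 CPM on KO day 1, and overlapped day 0 in both labels (-0.48, adjusted p = 0.693, and -0.99, adjusted p = 0.601).

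**Figure D4:**
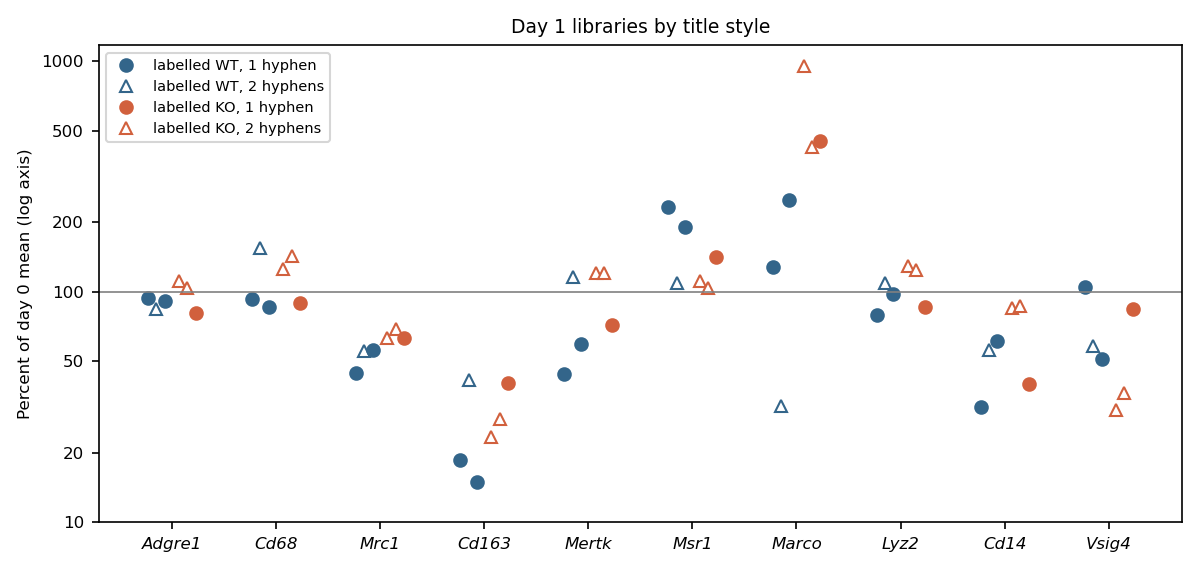
Each day 1 library as a percentage of the day 0 mean of its label (log axis) for the 10 genes, with open triangles for titles with 2 hyphens. Mertk, Cd68 and Lyz2 are higher and Msr1 lower in the libraries with 2 hyphens in both labels, Cd163 is at most 41.6% in every library, and Marco reaches 951% in a KO library.

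Between the labels none of the 10 genes was called on any day. On day 0, where 0.119% of all genes were called, log2 differences of KO minus WT ran from -1.51 (Marco, -3.44 to 0.41) to 0.50 (Vsig4, -0.73 to 1.74). On day 1, where 0.112% were, they ran from -0.81 (Msr1) to 0.64 (Marco, -1.23 to 2.50). On day 3, where 0.14% were, they ran from -0.55 (Marco, -2.51 to 1.41) to 1.05 (Cd163). At an unadjusted p under 0.05 there were 0, 1 and 1 of the 10 genes on days 0, 1 and 3, beside 7.59%, 7.90% and 10.7% of all genes. The label by day interaction, the day 3 change in KO minus that in WT, was called for 0% of all genes and for none of the 10. It ran from -0.16 (Cd68, -0.93 to 0.61) to 1.12 (Cd163, -0.30 to 2.54), with a median of 0.43 beside 0.020 over all genes. At an unadjusted p under 0.05 there were 0 of the 10 and 5.40% of all genes. The intervals are wide, and these tests do not show that the labels act alike.

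Osteoclast genes moved in the opposite direction in the same cultures. Of 10 osteoclast markers 9 were called higher on day 3 in each label, where 23.7% of all genes were in WT and 20.2% in KO. Calcr, the calcitonin receptor, and Oscar, an osteoclast receptor, had at most 3 counts in every day 0 library. Against 3 counts per library, they were at least 65.6-fold and 266-fold higher on WT day 3 and at least 46.3-fold and 236-fold higher on KO day 3. Within day 3, 1 library of each label was low for nearly all of the macrophage genes. WT day 3 library 3 was the lowest of its group for 10 of 10 genes, and KO day 3 library 2 was the lowest for 9 of 10. These libraries had the highest summed osteoclast markers of their groups, 23380 CPM against 16040 and 17740 in WT, and 17730 CPM against 12190 and 8293 in KO. Markers of other cells moved with this order. The same libraries had the lowest neutrophil sums, 62.9 CPM against 96.5 and 76.0 in WT and 131 CPM against 410.3 and 1334 in KO. They also had the lowest monocyte sums, 39.8 CPM against 46.2 and 50.5 in WT and 154 CPM against 194 and 495 in KO. Stromal sums were between those of the other libraries in WT and the highest in KO. The part of any of these cells in the order was not tested. WT day 3 library 2 and KO day 3 library 3 were each the highest of their group for 7 of the 10 genes. On days 0 and 1 no library was the lowest for more than 5. How many of all genes were lowest in WT day 3 library 3 or in KO day 3 library 2 was not counted. The order is thus not shown to be particular to the macrophage genes.

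Lists of related genes were read as counts. Over all genes 26.5% were called lower and 23.7% higher on day 3 in WT, and 22.3% and 20.2% in KO. Of 10 further general macrophage and myeloid markers 7 were called lower on day 3 in WT and 8 in KO, and none higher (median log2 fold change -1.44 and -1.49). Fcgr1, the high-affinity Fc receptor for IgG, was at 352 CPM on WT day 0 and 21.0 CPM on day 3 (-4.07, adjusted p = 7.27e-05). Mpeg1, a pore-forming protein of phagosomes, was at 6153 and 1074 CPM (-2.52, adjusted p = 0.00051). Of 9 tested genes of resident or alternatively activated macrophages 8 were called lower in WT and 6 in KO (median -2.05 and -1.64). Among them Slc40a1, the iron exporter ferroportin, went from 869 to 71.0 CPM in WT (-3.61, adjusted p = 0.000219) and from 714 to 102 CPM in KO (-2.81, adjusted p = 0.00152). Mgl2, a galactose-binding lectin, was called lower in WT (-4.03, adjusted p = 0.00289) and stood at -1.72 (adjusted p = 0.112) in KO, where it was called with the replicate block within label (-1.96, adjusted p = 0.0209) and with only the groups compared (adjusted p = 0.0497).

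The other scavenger receptors, the kin of Msr1, Marco and Cd163 by role, were mixed. Of 12 tested, 7 were called lower and 1 higher in WT, and 5 lower and 3 higher in KO, beside 26.5% of all genes lower and 23.7% higher in WT and 22.3% and 20.2% in KO. Stab2, a hyaluronan receptor, changed by -3.76 on the log2 scale in WT (adjusted p = 0.00031) and by -2.48 in KO (adjusted p = 0.0044). Olr1, a receptor for oxidised lipoprotein, had at most 3 counts in every WT day 3 library and was called lower, at least 9.44-fold below day 0 against that floor (adjusted p = 0.00972). Its KO call (-3.55, adjusted p = 0.0134) was lost without KO day 0 library 3 (adjusted p = 0.0586) or KO day 3 library 1 (adjusted p = 0.053). Scarf2, a scavenger receptor family member, rose by 1.94 in WT (adjusted p = 0.0115) and 2.25 in KO (adjusted p = 0.00635).

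Partners of Mertk in the uptake of apoptotic cells also went both ways, with 4 of 10 tested called lower and 3 higher in WT and 3 lower and 1 higher in KO. Over all genes 26.5% were called lower and 23.7% higher in WT and 22.3% and 20.2% in KO, so that the counts of this short list lie near those of all genes and show nothing of the list itself. Gas6, a Mertk ligand, fell from 1654 to 452 CPM in WT (-1.87, adjusted p = 0.000558) and from 1358 to 569 CPM in KO (-1.26, adjusted p = 0.00896). Timd4, a phosphatidylserine receptor, changed by -4.46 in WT (adjusted p = 0.000201) and by -3.25 in KO (adjusted p = 0.00166). Itgav, the integrin subunit that osteoclasts pair with Itgb3, rose from 38.3 to 292 CPM in WT (2.93, adjusted p = 4.84e-06) and from 44.4 to 187 CPM in KO (2.08, adjusted p = 6.39e-05). Tyro3, a receptor of the Mertk family, was called higher in WT (2.30, adjusted p = 0.0364) and stood at 2.12 in KO (adjusted p = 0.051). The WT call of Tyro3 was lost without library 1 or 2 of WT day 0 or of WT day 3 (adjusted p from 0.0525 to 0.109) and with only the groups compared (0.092), and held under 11 of 16 alternatives. In KO Tyro3 was called under 9 of 16 alternatives, among them the replicate number as a block (adjusted p = 0.039), the block within label (0.0357), title style as a covariate (0.0187) and only the groups compared (0.0171).

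Most genes of lipopolysaccharide recognition fell with Cd14. Of 10 tested, 8 were called lower in WT and 9 in KO, and none higher (median -1.31 in each). Of all genes 26.5% were called lower in WT and 22.3% in KO. Scaled by total counts, 6 of the list were called in WT and 5 in KO. These calls were counted in either direction, and with that scaling 51.8% and 43.8% of all genes were called in either direction. Called lower with it were 2221 of the 14241 genes in WT and 1963 in KO. How many of the 6 and 5 were lower was not counted. Ly86 (MD-1), the partner of Cd180, went from 250.4 to 24.7 CPM in WT (-3.34, adjusted p = 1.2e-05) and from 325 to 44.3 CPM in KO (-2.87, adjusted p = 5.05e-05). Lbp, the lipopolysaccharide-binding protein, fell in WT (-2.74, adjusted p = 0.00113) and in KO (-1.43, adjusted p = 0.035), and the KO call was lost without KO day 0 library 3 or any of the KO day 3 libraries (adjusted p from 0.0631 to 0.168) or with total counts (0.0718).

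The called members of the mannose receptor family beside Mrc1 went in the other direction. Mrc2, which takes up collagen, rose from 17.5 to 102 CPM in WT (2.54, adjusted p = 0.0166) and from 28.7 to 178 CPM in KO (2.63, adjusted p = 0.0164). It was not called in WT without day 0 library 2 (adjusted p = 0.0634) or with only the groups compared (0.0758), or in KO without KO day 0 library 2 (adjusted p = 0.0629). Pla2r1, a phospholipase A2 receptor, rose from 2.52 to 9.18 CPM in WT (1.85, adjusted p = 0.0351) and from 2.55 to 15.3 CPM in KO (2.58, adjusted p = 0.00877). The WT call was lost without WT day 0 library 1 or 2 or any WT day 3 library (adjusted p from 0.0607 to 0.114), and with only the groups compared (0.0779). Ly75, an endocytic receptor of dendritic cells, was at 1.41 (adjusted p = 0.0535) in WT and 0.92 (adjusted p = 0.203) in KO. It was called in WT under 7 of 16 alternatives, among them the replicate block (1.79, adjusted p = 0.0111), the block within label (1.87, 0.0129), title style as a covariate (0.0393), total counts (0.0311) and WT day 0 library 3 left out (0.00059), and in KO under none. Fibroblasts express Mrc2 and Pla2r1, and a list of 10 stromal markers moved with them. Of these 7 were called higher in WT and 9 in KO, where 23.7% and 20.2% of all genes were. Their summed level was 80.0 to 4385 CPM on WT day 0 and 10250 to 13280 CPM on WT day 3. In KO it was 939.8 to 3312 CPM on day 0 and 18530 to 26600 CPM on day 3. No stromal marker was at 0 in every library of a group. The part of stromal RNA in these changes, or in those of the 10 macrophage genes, was not tested. The sums of B cell, T and NK cell, dendritic cell, erythroid and mast cell markers were at most 213 CPM in every library.

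**Figure D5:**
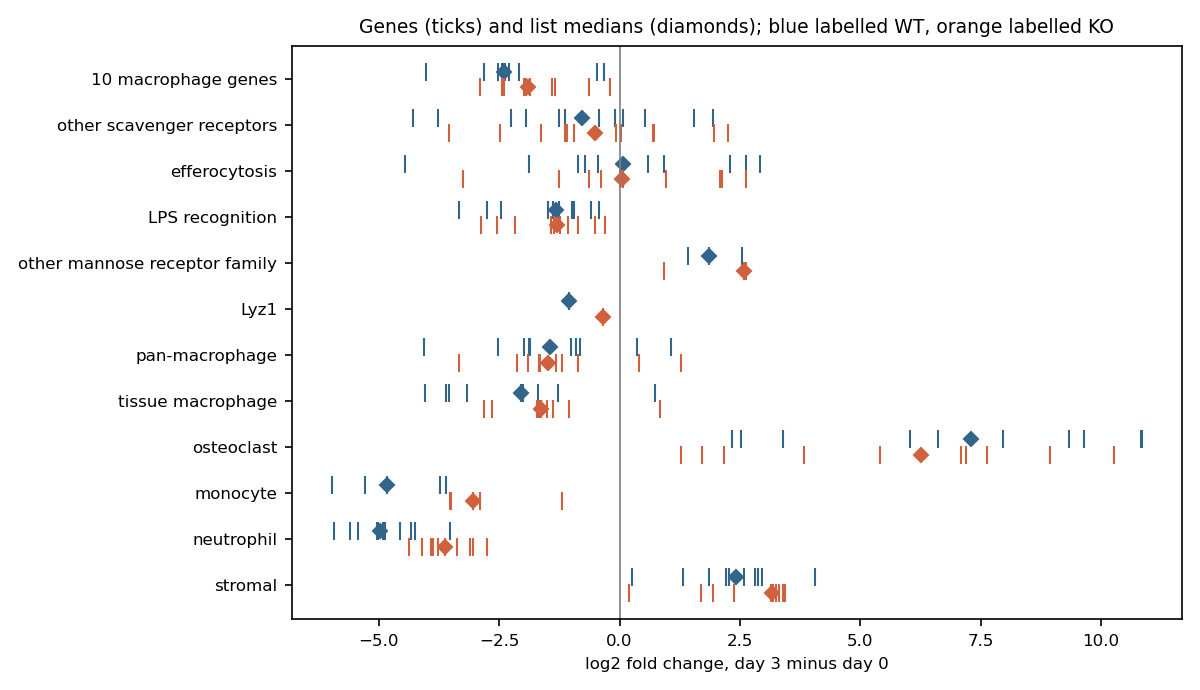
Log2 fold changes from day 0 to day 3 of the 10 macrophage genes and of 11 related or cell type marker lists (ticks are genes tested, diamonds are medians), with blue for libraries labelled WT and orange for those labelled KO. The median of the 10 genes is -2.40 in WT and -1.90 in KO, those of monocyte and neutrophil markers lie lower, and those of stromal markers (2.42 and 3.16) and osteoclast markers (7.30 and 6.25) lie above 0.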

How the data were processed

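BMDM RNA was sequenced in 18 libraries, grouped by the genotype in the titles and the day. According to the labels, RNA was extracted with a column kit and made into messenger RNA libraries with a SMARTer kit. The deposited table holds whole-number counts per gene and FPKM values, which the authors computed with StringTie and Ballgown (build GRCm38.p4 or mm10). The aligner and counting program are not given in the sources used here. Gene positions are GRCm38, as in the table. The deposited counts were fitted in R 4.3.3 with edgeR 4.0.16 (filterByExpr, TMM scaling, quasi-likelihood F test, 6 groups in 1 fit), with 2-sided p-values adjusted by the Benjamini-Hochberg method over 14241 genes. CPM are counts scaled by TMM library size, SEs come from the F statistic, and intervals are 95%. The deposited FPKM were used only to order genes per length. PCR copies could not be told apart from separate molecules. Named list genes were up to 2 called genes in each direction with the largest WT day 3 change and a mean above 1 CPM, and every gene of the mannose receptor and lysozyme lists. The members and lists were chosen with earlier results of these data known. Alternatives were no filter or a stricter one, DESeq2 1.42.0 size factors or Wald test, total counts, only the groups compared, replicate number as a block, title style as covariate or left out, the WT day 1 pair averaged, Lyz1 and Lyz2 summed, and each library left out. The pipeline was tested on simulated data.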

Additional observations from a re-analysis of the deposited data

How the results depend on the processing

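On day 3 the 10 genes had 7 calls in each label and 7 or 8 under every alternative run. The eighth was Marco in WT (DESeq2 Wald test, title style as a covariate, the titles with 2 hyphens left out, or without WT day 0 library 1 or 3) and Cd68 in KO (DESeq2 Wald test, title style as a covariate, or without KO day 0 library 1). The counts between the labels on days 0 and 3 and for the interaction stayed at 0. The count for WT day 1 (1) depended on the processing. It was 0 with no filter, 2 with a stricter filter, 0 with total counts, 4 with the DESeq2 Wald test, 0 with only the groups compared, 0 with the replicate number as a block, 0 with the block within each label, 3 adjusted for title style, 2 without the titles with 2 hyphens, 2 with the WT day 1 libraries numbered 1 averaged, and 0 to 3 with single libraries left out. Over all genes the WT day 1 calls went from 335 to 126, 206, 1221, 0, 9, 0, 1001, 1051 and 565 under the same alternatives in that order, leaving out the stricter filter (396). With single libraries left out they ran from 0, without WT day 1 library 1 with 1 hyphen or library 2, to 1809, without the WT day 1 library with 2 hyphens. KO day 1 had 1 call with DESeq2 in place of 0, and KO against WT on day 1 had 0 to 1 with single libraries left out. Over all genes the calls ranged over the alternatives from 0 to 170 (KO day 1), 6 to 196 (KO against WT, day 0), 3 to 131 (day 1), 9 to 235 (day 3) and 0 to 4 (interaction), against 3, 17, 16, 20 and 0 as reported. Signs turned only for changes that passed no test. With total counts Msr1 on day 3 was 0.037 in WT and 0.079 in KO. Without the titles with 2 hyphens Cd68 on WT day 1 was -0.00677, Lyz2 on WT day 1 0.10, Mertk on KO day 1 -0.36 and Marco in KO against WT on day 1 -0.26. Mertk on KO day 1 was -0.16 adjusted for title style, and Vsig4 on WT day 1 was 0.12 with the block within label. With single libraries left out, ranges crossed 0 for Cd68 (-0.15 to 0.31), Lyz2 (-0.34 to 0.21), Marco (-0.31 to 2.09) and Vsig4 (-0.86 to 0.65) on WT day 1. The same held for Adgre1 (-0.11 to 0.10), Lyz2 (-0.014 to 0.52) and Mertk (-0.094 to 0.27) on KO day 1, and for Marco between the labels on day 0 (-2.61 to 0.13) and the Cd68 interaction (-0.33 to 0.063). The causes were not tested. For same-numbered libraries, deviations of log2 CPM from the group mean were correlated over the tested genes. Between days 0 and 3 the values were 0.13, 0.135 and 0.398 in KO and 0.111, -0.023 and 0.0514 in WT. Between days 0 and 1 they were 0.0536, 0.501 and 0.598 in KO. In WT they were -0.464 and 0.604 for day 1 library 1 with 1 and with 2 hyphens, and 0.138 for library 2. The labels do not say what a number marks. The block, over both labels or within each, changed no call of the 10 genes other than that of Cd163 on WT day 1. Among the named genes of other lists it brought the day 3 calls of Tyro3 in KO and Ly75 in WT, and within label also those of Lyz1 in WT and Mgl2 in KO. With 3 libraries a group, wide intervals for Marco, Vsig4 and Cd163 limit what can be seen between the labels.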
